A study of Mus musculus with 4 samples.

Results

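The genes described here are 41 named genes of the response to low oxygen and of glycolysis, chosen by symbol among the 41029 genes measured in mesenchymal stem/progenitor cells that were cultured from the bone marrow of mice. By role they fall into 7 genes of the hypoxia-inducible factor (HIF) and its oxygen-dependent control, 19 genes of glycolytic enzymes and their regulators, and 15 other HIF targets. All 41 were present in the table, and 39 averaged 1 FPKM or more across the 4 libraries and were tested. Epas1 and Car9 lay below that level and are given as values only. FPKM is the number of sequenced fragments assigned to a gene, scaled to the gene's length and to the library's total.

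The cells came from the marrow of C57BL/6 mice and were grown in MesenCult medium with its supplement, and replated as the dishes filled. Of the 4 libraries, 2 carry the genotype label Tet2-/- and 2 the label wild type. Tet2 oxidises methylated cytosine in DNA. How the allele was made, the age and sex of the mice, the passage and the oxygen in the incubator are not given in the sources used here, and no low-oxygen sample enters the comparison.

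HIF is a transcription factor made of an oxygen-sensitive alpha subunit, encoded by Hif1a or Epas1, and a stable beta subunit, encoded by Arnt. When oxygen is present, the prolyl hydroxylases Egln1, Egln2 and Egln3 mark the alpha subunit, the ligase subunit Vhl binds the mark, and the subunit is destroyed. Hif1an adds a hydroxyl group to an asparagine and so keeps coactivators away. In low oxygen the alpha subunit persists, enters the nucleus and switches on glucose transporters, nearly every glycolytic enzyme, and genes that limit the use of pyruvate by mitochondria. Egln3 is itself a HIF target, which makes it part of a feedback loop. Bone marrow is a low-oxygen tissue, and its stromal progenitors are known to rely on glycolysis. The HIF alpha subunits are controlled mainly as proteins, which RNA does not measure.

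The libraries held 10096878 to 21337246 reads over genes. Tet2 stood at 11.6 and 9.70 FPKM under the label Tet2-/- and at 7.01 and 8.39 FPKM in wild type, so it was no lower under that label, and the 2 libraries are called knockout-labelled below. A read count over a whole gene does not check a deletion of part of it. The pair of wild-type libraries lay close together, with a median gap of 0.08 on the log2 scale over genes and 0.05 over the members. The knockout-labelled pair lay further apart, at 0.35 over genes and 0.51 over members. Whether replicates came from different mice or dishes is not stated, so every p-value reflects the spread among these 4 samples, which may be technical. The test used below assumes the same spread in both groups, although these gaps differ. In bulk RNA, fewer cells of a type and less RNA per cell cannot be told apart.

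Markers of other cell types differed between the libraries. All 6 osteoblast markers in knockout-labelled 2 exceeded each wild-type library by 2-fold or more. There they summed to 1337 FPKM, against 64.0 FPKM in knockout-labelled 1 and 70.5 and 71.5 FPKM in wild type. Runx2 made up 53.2 FPKM of the sum in knockout-labelled 1. In that library Sp7 and Ibsp were at least 2-fold below both wild-type libraries, and Dmp1, under 1 FPKM, was at least 2-fold above both. The 5 adipocyte markers summed to 216.1 FPKM in knockout-labelled 1, 61.6 FPKM in knockout-labelled 2 and 26.4 and 23.6 FPKM in wild type. Lpl made up 190.2 FPKM of the sum in knockout-labelled 1, and the fat-cell hormone Adipoq was at or near 0 throughout. Endothelial markers stayed under 1 FPKM in sum, and all 4 erythroid globin genes were at 0. The 8 macrophage and blood markers summed to 62.6 and 97.6 FPKM in the knockout-labelled libraries and to 92.2 and 89.7 FPKM in wild type. Most of it was Lyz2, at 36.88 and 66.75 FPKM against 65.95 and 63.05 FPKM. Of the 6 tested, 3 lay above both wild-type libraries and 1 below both. The 2 tested chondrocyte markers overlapped, such as Sox9 at 7.37 and 1.11 FPKM against 4.07 and 4.38 FPKM. The 12 stromal markers summed to 3573, 14030, 7431 and 7121 FPKM in the same order, most of it Col1a1 (2628, 13290, 6257 and 5962 FPKM). Of these 12, 4 were below both wild-type libraries, such as Eng at 1.53 and 1.59 FPKM against 109.9 and 101.5 FPKM, and 2 were above both, such as Nt5e at 9.46 and 61.1 FPKM against 3.28 and 3.13 FPKM. Of the 5 genes of dividing cells, Top2a was above both wild-type libraries, at 208.1 and 247.2 FPKM against 164.6 and 174.6 FPKM, and the other 4 overlapped. The part of these differences in the results below was not tested.

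The promoters shown here are those of the 4 members that were lower by 2-fold or more whichever knockout-labelled library is set against whichever wild-type one, because they carry the widest separations among the members lower in the knockout-labelled libraries. Each is 300 bases, from 250 before to 50 after the RefSeq start of the gene, written in the direction of transcription on GRCm38.p6. Capitals mark ACGTG or GCGTG, the core letters that HIF is known to bind, read on both strands so that CACGT and CACGC count too. Egln3 is shown from chr12:54203825-54204124, Pfkl from chr10:78009758-78010057, Ddit4 from chr10:59951721-59952020 and Ankrd37 from chr8:45999801-46000100, all on the minus strand.
Egln3: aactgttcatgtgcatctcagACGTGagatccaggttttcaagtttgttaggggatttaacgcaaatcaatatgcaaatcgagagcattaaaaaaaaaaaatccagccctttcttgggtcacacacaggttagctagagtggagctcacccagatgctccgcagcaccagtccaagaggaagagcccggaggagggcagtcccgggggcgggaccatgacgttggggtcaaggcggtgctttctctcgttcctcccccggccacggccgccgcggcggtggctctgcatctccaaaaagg
Pfkl: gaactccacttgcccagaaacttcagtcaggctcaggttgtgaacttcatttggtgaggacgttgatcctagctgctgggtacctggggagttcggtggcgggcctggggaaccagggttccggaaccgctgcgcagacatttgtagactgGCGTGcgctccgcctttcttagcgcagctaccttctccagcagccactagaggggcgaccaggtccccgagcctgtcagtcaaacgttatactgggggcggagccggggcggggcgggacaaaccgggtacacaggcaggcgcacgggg
Ddit4: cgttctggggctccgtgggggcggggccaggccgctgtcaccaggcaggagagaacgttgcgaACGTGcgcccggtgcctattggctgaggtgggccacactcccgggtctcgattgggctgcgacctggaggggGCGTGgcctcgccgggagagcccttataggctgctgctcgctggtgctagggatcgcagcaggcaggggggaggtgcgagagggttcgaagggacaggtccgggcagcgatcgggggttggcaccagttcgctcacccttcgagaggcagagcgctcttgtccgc
Ankrd37: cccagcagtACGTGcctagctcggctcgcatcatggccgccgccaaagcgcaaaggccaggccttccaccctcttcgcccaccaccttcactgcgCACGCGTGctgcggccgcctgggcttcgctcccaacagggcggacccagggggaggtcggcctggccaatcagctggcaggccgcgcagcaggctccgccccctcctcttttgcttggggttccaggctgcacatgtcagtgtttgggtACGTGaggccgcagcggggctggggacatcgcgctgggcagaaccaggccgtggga
The Egln3 and Pfkl windows hold 1 match each, the Ddit4 window 2, and the Ankrd37 window 4, of which a neighbouring pair overlaps. Among the 37 members with a RefSeq promoter, 31 held at least 1 match (83.8%), against 12628 of 27025 genes in all (46.7%). For a gene with several RefSeq starts, the window with the most matches was counted, as for Hk1, with 0 and 5. Genes with more starts thus had more windows in which to hold a match. The members' windows were also richer in G and C, with a median of 62.7% against 53%. Of the members below both wild-type libraries 20 of 22 held a match, of those above both 3 of 5, and of those overlapping 7 of 9. The median share of G and C in their windows ranked the same way, at 65.5%, 55.3% and 61% respectively. Its part in these counts was not tested. Ldha, whose windows held 7 and 2 matches, and Hif1a, with 3, differ in their results below. In both genes some matches start at neighbouring bases and overlap, as the same stretch can match on both strands. The Epas1, Slc2a3, Bnip3l and Ndrg1 promoters were not matched. A match is a description of letters and not a bound site.

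Across all 39 tested members, most lay lower in the knockout-labelled libraries. Both knockout-labelled libraries were below both wild-type libraries for 23 members, while 24.8% of all genes tested did so. They were above both for 7 members, against 29.4% of genes, and the groups overlapped for the other 9. The members were chosen with earlier results of these data known, so these counts are a description and not independent support. No member passed the limma test at an adjusted p under 0.05, a threshold met by 2 genes or 0.0162% of those tested. At an unadjusted limma p under 0.05, 14 members were lower, against 8.29% of genes, and 1 was higher, against 8.84%. Without wild type 1 or without wild type 2, fewer members met that unadjusted threshold, and so did fewer of all genes tested. By an exact permutation test, 2 libraries against 2 cannot go below p = 0.33, so a test of each gene has to borrow its spread from the others. Log2 differences are of log2(FPKM + 1), knockout-labelled minus wild type, and folds are ratios of mean FPKM.

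**Figure D1:**
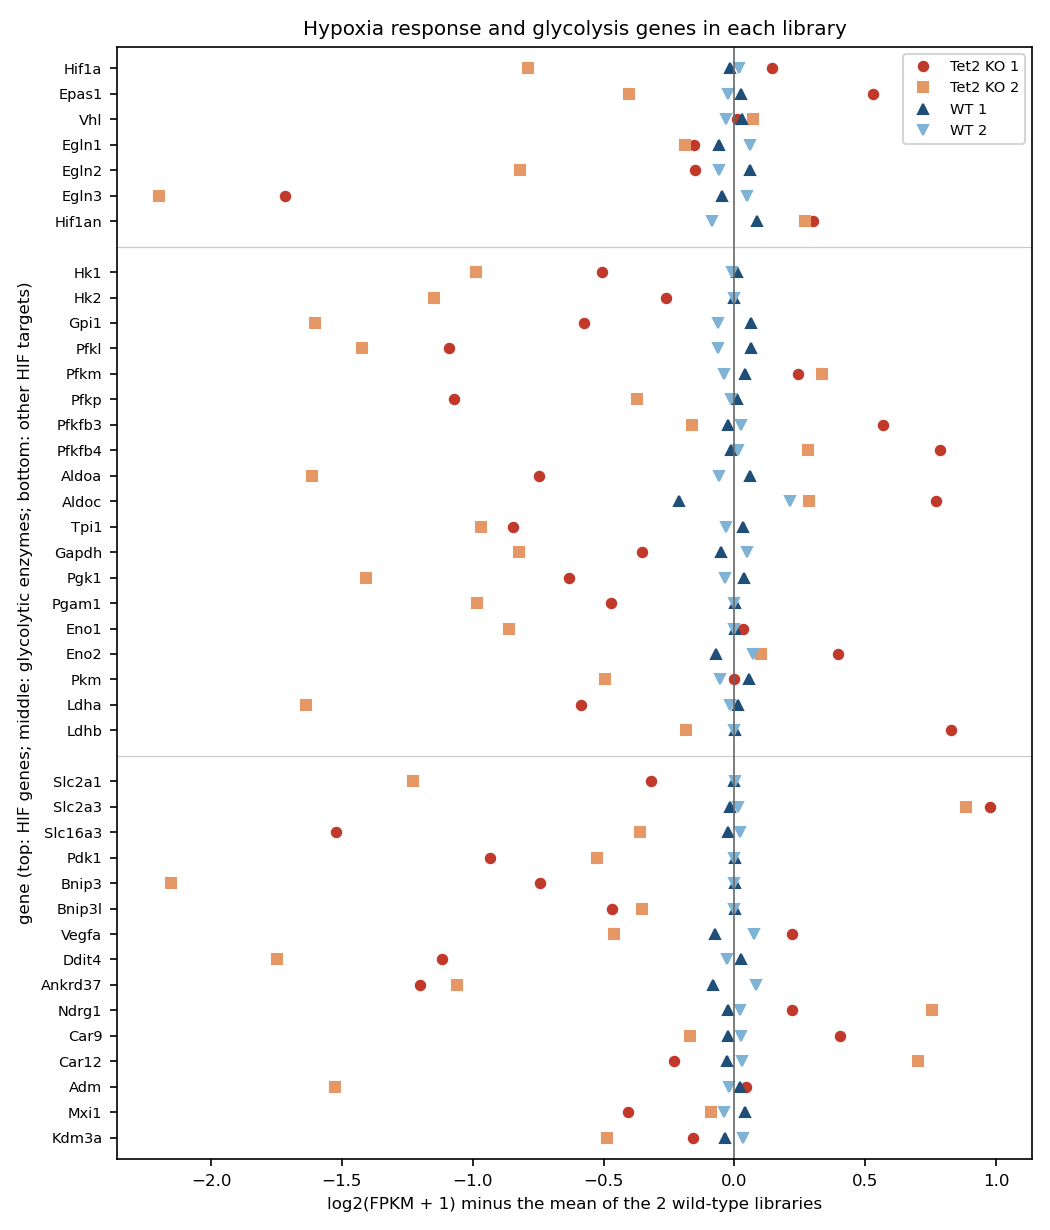
Log2(FPKM + 1) of each member in each library minus the mean of the wild-type libraries, with 1 row per member in the order of the 3 roles. Most rows lie left of 0 in both knockout-labelled libraries, with Egln3 farthest left, while Slc2a3 lies right of 0 in both.

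The medians of the 3 groups of genes differed, by an amount that was not tested. The median log2 difference was −0.71 over the 19 glycolytic genes, −0.57 over the 14 tested other targets and −0.25 over the 6 tested HIF genes, against 0.03 over all genes tested. The order of the glycolytic genes and the other targets turned in 3 alternatives, with medians of −0.54 and −0.57 after quantile normalization, −0.71 and −0.73 at a mean of at least 5 FPKM, and −0.35 and −0.36 without knockout-labelled 2. The glycolytic genes counted 13 lower and 6 higher, the other targets 11 and 3, and the HIF genes 4 and 2. Of the 23 members below both wild-type libraries, 11 were glycolytic, 9 were other targets and 3 were HIF genes. Of the 14 lower at an unadjusted limma p under 0.05, 8 were glycolytic, 5 were other targets and 1 was Egln3.

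The knockout-labelled libraries did not contribute equally. In knockout-labelled 1 the median difference from wild type was −0.35 over the glycolytic genes, −0.36 over the other targets and −0.07 over the HIF genes. In knockout-labelled 2 these medians were −0.86, −0.47 and −0.49. Glycolytic genes thus stood lowest in the library with the high osteoblast markers. Knockout-labelled 2 lay below knockout-labelled 1 for 29 of 39 members against 51.5% of all genes, with 17 of 19 among the glycolytic genes, 5 of 6 among the HIF genes and 7 of 14 among the other targets. Knockout-labelled 1 lay below both wild-type libraries for 24 members, against 41% of genes, and above both for 13, against 47.6%. Knockout-labelled 2 lay below both for 30, against 43.7%, and above both for 9, against 47.7%. When knockout-labelled 1 was left out, limma called 31 members, against 60.1% of genes, and when knockout-labelled 2 was left out it called 27, against 46.5%. Those fits assume that the lone library varies as little as the wild-type pair.

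**Figure D2:**
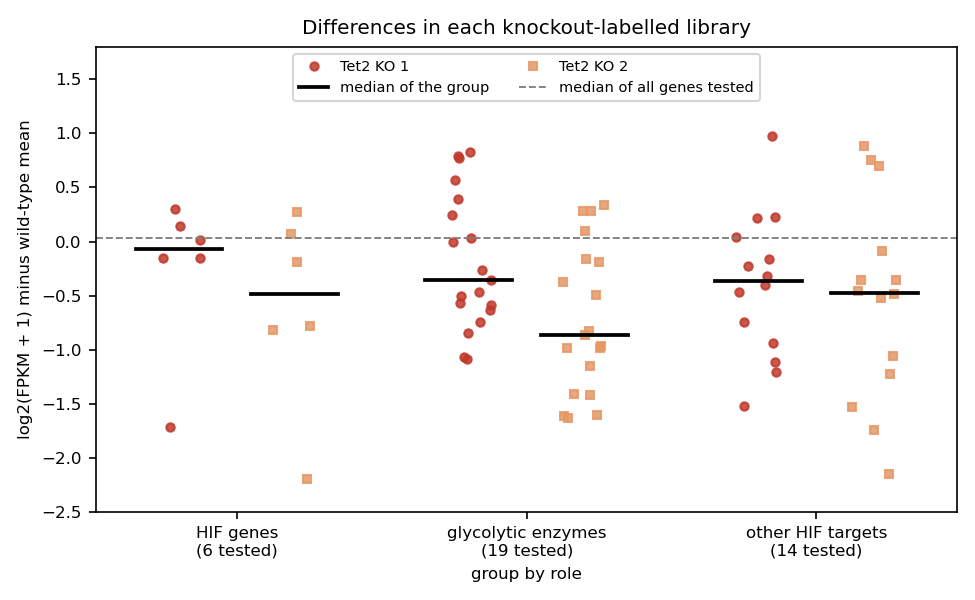
Difference of log2(FPKM + 1) from the wild-type mean in each knockout-labelled library, 1 point per tested member, by role; bars are group medians and the dashed line is the median of all genes tested, 0.03. The glycolytic median is −0.35 in knockout-labelled 1 and −0.86 in knockout-labelled 2.

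Among the HIF genes, the widest gap was in Egln3, while the alpha subunit genes overlapped with wild type. Hif1a, the main alpha subunit gene, stood at 202.8 and 106.0 FPKM in the knockout-labelled libraries and at 181.6 and 185.7 FPKM in wild type. Knockout-labelled 1 was thus above both wild-type libraries and knockout-labelled 2 below both (log2 difference −0.32, SE 0.35, limma adjusted p = 0.652). Epas1, the other alpha subunit gene, was scarce at 1.30 and 0.203 FPKM against 0.616 and 0.562 FPKM, also on opposite sides of wild type. Vhl hardly differed, at 37.2 and 38.9 FPKM against 37.8 and 36.2 FPKM.

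The 3 prolyl hydroxylase genes differed from wild type by unequal amounts. Egln3 (ENSMUSG00000035105, chr12:54178981-54203860, minus strand, GRCm38) stood at 2.37 and 1.41 FPKM in the knockout-labelled libraries and at 9.71 and 10.4 FPKM in wild type. The groups were far apart: the wild-type mean was 5.33-fold higher, and the nearest pair of libraries was 4.10-fold apart. The log2 difference was −1.96 (SE 0.23), with an unadjusted limma p of 0.00108 and an adjusted p of 0.156. These levels rest on 100 and 80 reads for the knockout-labelled pair and on 261 and 494 for wild type. Egln1, held to be the main oxygen sensor in most cells, stood at 23.6 and 23.1 FPKM against 25.3 and 27.6 FPKM, a small gap without overlap (log2 difference −0.17, SE 0.12, limma adjusted p = 0.514). Egln2 stood at 32.3 and 19.9 FPKM against 37.5 and 34.4 FPKM, lower chiefly in knockout-labelled 2 (log2 difference −0.48, SE 0.27, limma adjusted p = 0.413). Egln3 made up 4.07% and 3.17% of the summed FPKM of the 3 genes in the knockout-labelled pair and 13.4% and 14.4% in wild type, a ratio that does not depend on the scaling of a library. Hif1an was slightly higher without overlap, at 13.7 and 13.4 FPKM against 11.7 and 10.3 FPKM (log2 difference 0.29, SE 0.14, limma adjusted p = 0.374).

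In wild type several glycolytic genes were among the most abundant transcripts of these cells. Levels compared across genes rest on gene lengths whose source is not given. The FPKM values of all 19 glycolytic genes summed to 7833 and 7587 in wild type, or 1.29% and 1.25% of the FPKM of all genes. In the knockout-labelled libraries they summed to 5678 and 3729 FPKM, or 0.965% and 0.653%. Both knockout-labelled sums were thus below both wild-type sums, with knockout-labelled 2 the lower. Ldha ranked 36 among all genes by its wild-type mean, followed by Tpi1, Pkm, Aldoa and Gapdh at ranks 49, 52, 55 and 67. The wild-type means of Tpi1, Pkm and Aldoa, 1098, 1071 and 1040 FPKM with SDs of 34.8, 57.1 and 60.8 (n = 2), did not differ beyond their spread. Glycolytic genes of low level were Aldoc, Pfkfb3, Pfkfb4 and Pfkm, at 1.27 to 18.8 FPKM in wild type.

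Of the genes that trap and rearrange glucose, the abundant ones were lower. Hk1, the hexokinase of most tissues, stood at 172.6 and 123.2 FPKM in the knockout-labelled libraries and at 247.0 and 243.9 FPKM in wild type. Hk2, the inducible hexokinase and a HIF target, stood at 31.6 and 16.6 FPKM against 38.0 and 38.0 FPKM. Neither overlapped, with the wild-type mean 1.66-fold higher for Hk1 (log2 difference −0.75, SE 0.20, limma adjusted p = 0.246) and 1.58-fold higher for Hk2 (−0.71, SE 0.33, limma adjusted p = 0.363). Gpi1, which turns glucose phosphate into fructose phosphate, stood at 211.6 and 103.1 FPKM against 329.7 and 301.6 FPKM. Its wild-type mean was 2.01-fold higher (log2 difference −1.09, SE 0.38, limma adjusted p = 0.285), and knockout-labelled 2 was again the lowest library.

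Phosphofructokinase, the committed step of glycolysis, is assembled from subunits of 3 genes, which did not all lie on the same side of wild type. Pfkl, the liver-type subunit (ENSMUSG00000020277, chr10:77986947-78010083, minus strand), stood at 96.8 and 76.7 FPKM in the knockout-labelled libraries and at 216.4 and 198.3 FPKM in wild type. The wild-type mean was 2.39-fold higher and the nearest pair 2.05-fold apart, which made Pfkl the glycolytic gene with the smallest limma p (log2 difference −1.26, SE 0.17, unadjusted p = 0.00164, adjusted p = 0.173). Pfkp, the platelet-type subunit, stood at 32.7 and 53.8 FPKM against 70.4 and 69.4 FPKM, here with knockout-labelled 1 the lower (log2 difference −0.72, SE 0.27, limma adjusted p = 0.299). Pfkm, the muscle-type subunit, stood higher, at 22.4 and 23.9 FPKM against 19.3 and 18.2 FPKM (log2 difference 0.29, SE 0.12, limma adjusted p = 0.335). The summed level of the 3 genes was 151.9 and 154.3 FPKM against 306.2 and 285.9 FPKM. The sums of the knockout-labelled libraries lay close together although their Pfkl and Pfkp levels did not. The exons of Pfkm overlap those of Senp1 on the other strand, which stood at 23.6 and 19.5 FPKM against 19.2 and 19.3 FPKM, and those of Pfkp overlap Pitrm1, at 32.6 and 27.1 FPKM against 26.7 and 26.5 FPKM. Whether reads were counted by strand is not given in the sources used here. Pfkm made up 14.7% and 15.5% of the sum in the knockout-labelled pair and 6.3% and 6.37% in wild type.

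Pfkfb3 and Pfkfb4 encode enzymes that set the level of the fructose bisphosphate that activates phosphofructokinase, and neither lay on the side of Pfkl. Pfkfb4 stood at 24.9 and 17.2 FPKM in the knockout-labelled libraries and at 13.9 and 14.1 FPKM in wild type, higher without overlap (log2 difference 0.53, SE 0.22, limma adjusted p = 0.320). Pfkfb3 stood at 16.5 and 9.54 FPKM against 10.6 and 11.0 FPKM and overlapped (log2 difference 0.20, SE 0.29, limma adjusted p = 0.731). Both genes are known HIF targets. Of their relatives, named after their values were seen, Pfkfb1 lay below both wild-type libraries, at 3.48 and 2.55 FPKM against 4.56 and 3.99 FPKM. Pfkfb2 lay above both, at 7.49 and 4.75 FPKM against 3.99 and 3.96 FPKM.

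Of the genes for splitting the sugar and oxidising the product, the 3 abundant ones lay below both wild-type libraries and the scarce Aldoc lay above both. Aldoa, the main aldolase, stood at 618.6 and 338.9 FPKM in the knockout-labelled libraries and at 1083 and 996.9 FPKM in wild type. Tpi1, which interconverts the products of the aldolase step, stood at 609.4 and 560.5 FPKM against 1122 and 1073 FPKM. Gapdh, the dehydrogenase of the pathway, stood at 730.1 and 526.4 FPKM against 901.1 and 964.7 FPKM. None of these groups overlapped, and both knockout-labelled libraries agreed closely only for Tpi1 among them. The wild-type mean was 2.17-fold higher for Aldoa (log2 difference −1.18, SE 0.33, limma adjusted p = 0.250). It was 1.88-fold higher for Tpi1 (−0.91, SE 0.14, limma adjusted p = 0.202) and 1.49-fold higher for Gapdh (−0.59, SE 0.21, limma adjusted p = 0.294). For Gapdh, widely used as a reference gene, the gap within the knockout-labelled pair was wider than that between knockout-labelled 1 and wild type 1. Aldoc, the brain-type aldolase, was scarce and higher, at 2.83 and 1.74 FPKM against 0.939 and 1.60 FPKM (log2 difference 0.53, SE 0.29, limma adjusted p = 0.422).

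Pgk1, the first enzyme to make ATP in the pathway, stood at 241.9 and 140.8 FPKM in the knockout-labelled libraries and at 384.7 and 366.0 FPKM in wild type. Pgam1, the mutase that follows it, stood at 279.4 and 195.3 FPKM against 387.8 and 386.9 FPKM. Both lay below wild type in each knockout-labelled library, 1.96-fold lower in the mean for Pgk1 (log2 difference −1.02, SE 0.30, limma adjusted p = 0.253) and 1.63-fold lower for Pgam1 (−0.73, SE 0.22, limma adjusted p = 0.253).

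After Pgam1, the most abundant genes on the way to pyruvate, Eno1 and Pkm, overlapped with wild type. Eno1, the main enolase, stood at 549.5 and 295.2 FPKM in the knockout-labelled libraries and at 537.7 and 536.6 FPKM in wild type, so that the gap came from knockout-labelled 2 alone (log2 difference −0.41, SE 0.34, limma adjusted p = 0.560). Pkm, the pyruvate kinase gene, stood at 1070 and 759.9 FPKM against 1111 and 1030 FPKM, with knockout-labelled 1 between the wild-type values (log2 difference −0.25, SE 0.22, limma adjusted p = 0.593, and a log2 difference of 0.037 after quantile normalization). Eno2, the neuronal enolase, was slightly higher, at 57.3 and 46.4 FPKM against 41.2 and 45.5 FPKM (log2 difference 0.25, SE 0.16, limma adjusted p = 0.473). Eno3, the muscle enolase, which is no member and was named after its values were seen, lay below both wild-type libraries, at 144.7 and 126.6 FPKM against 185.6 and 159.8 FPKM (log2 difference −0.35, SE 0.15, limma adjusted p = 0.337).

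**Figure D3:**
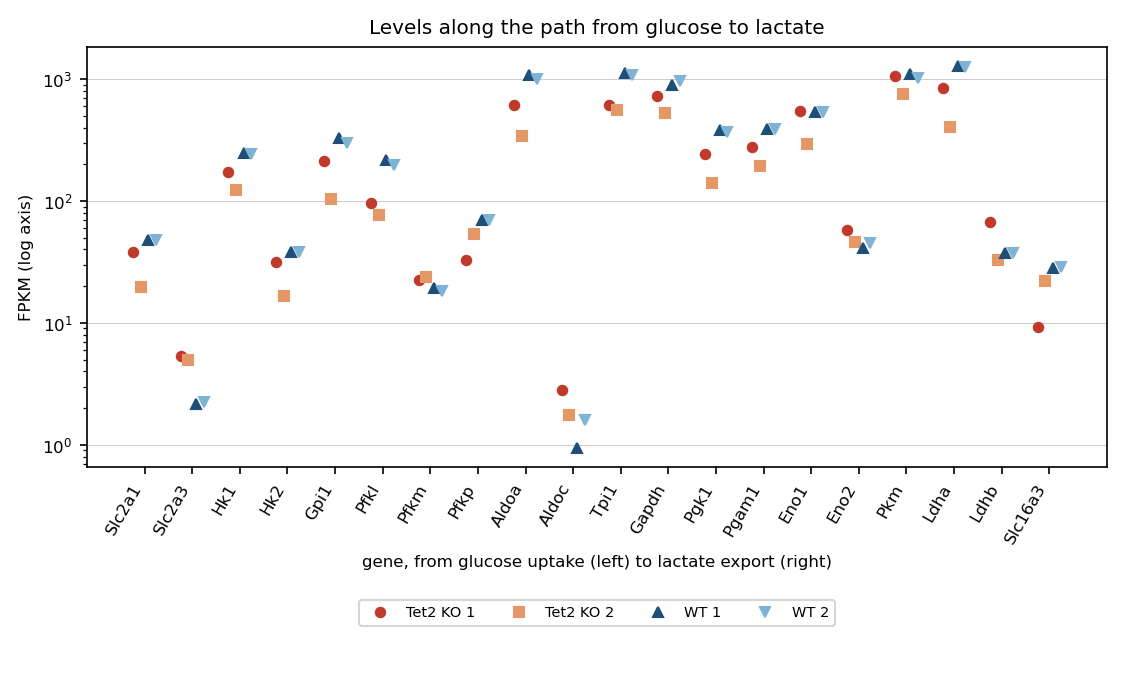
FPKM on a log axis of the glucose and lactate transporters and the glycolytic enzymes in the order of the pathway, 1 symbol per library. From Hk1 to Pgam1 the abundant genes lie below wild type in both knockout-labelled libraries, while Eno1 and Pkm in knockout-labelled 1 lie at the wild-type level and Ldha lies below it again.

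The balance of the lactate dehydrogenase genes differed between the groups. Ldha, whose product favours making lactate from pyruvate and which is a classic HIF target, stood at 842.6 and 406.9 FPKM in the knockout-labelled libraries and at 1280 and 1253 FPKM in wild type. The wild-type mean was 2.03-fold higher without overlap (log2 difference −1.11, SE 0.39, limma adjusted p = 0.287). Ldhb, whose product favours the opposite reaction, stood at 67.1 and 32.8 FPKM against 37.5 and 37.3 FPKM, on opposite sides of wild type (log2 difference 0.32, SE 0.37, limma adjusted p = 0.679). Although both genes were about 2-fold apart between the knockout-labelled libraries, their ratio was nearly equal there. Ldhb made up 7.38% and 7.45% of the summed FPKM of both genes in the knockout-labelled pair and 2.84% and 2.89% in wild type.

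Similar shares for other gene pairs varied more between the knockout-labelled libraries. Slc2a3 made up 12.2% and 19.9% of the summed FPKM of Slc2a1 and Slc2a3 in the knockout-labelled pair and 4.35% and 4.47% in wild type. Eno2 made up 9.44% and 13.6% of the sum of Eno1 and Eno2, which leaves out Eno3, against 7.11% and 7.81%. Hk2 made up 15.5% and 11.9% of the sum of Hk1 and Hk2 against 13.3% and 13.5%, which overlapped. These shares were computed after the levels were known and are descriptions.

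**Figure D4:**
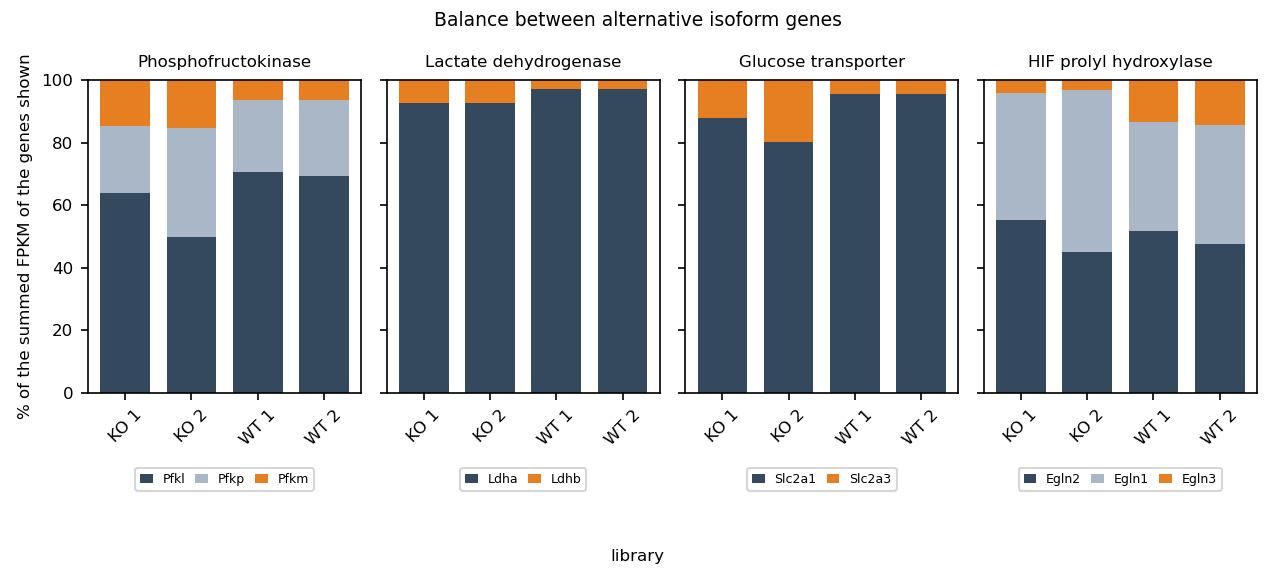
Percent of the summed FPKM held by each gene of 4 families, in each library. Pfkm, Ldhb and Slc2a3 hold larger shares, and Egln3 a smaller share, in both knockout-labelled libraries than in both wild-type libraries.

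The transporters at the entry and exit of the pathway also differed in direction. Slc2a1, the glucose transporter of most growing cells and a HIF target, stood at 38.3 and 19.9 FPKM in the knockout-labelled libraries and at 47.8 and 48.0 FPKM in wild type (log2 difference −0.77, SE 0.34, limma adjusted p = 0.344). Slc2a3, a high-affinity glucose transporter best known in neurons (ENSMUSG00000003153, chr6:122727809-122801640, minus strand), stood at 5.33 and 4.93 FPKM against 2.18 and 2.25 FPKM. It was the sole member higher at an unadjusted limma p under 0.05, 2.32-fold in the mean and 2.198-fold in the nearest pair (log2 difference 0.93, SE 0.17, unadjusted p = 0.00494, adjusted p = 0.211). Its levels rest on few reads, 146 and 182 for the knockout-labelled pair and 38 and 69 for wild type. Slc16a3, the lactate exporter induced by HIF, stood at 9.265 and 22.01 FPKM against 28.1 and 29.0 FPKM, with knockout-labelled 1 the lowest (log2 difference −0.94, SE 0.43, limma adjusted p = 0.351).

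The HIF targets that act on mitochondria were lower without overlap. Pdk1, the kinase that shuts off pyruvate dehydrogenase, stood at 27.3 and 36.6 FPKM in the knockout-labelled libraries and at 53.2 and 53.0 FPKM in wild type (log2 difference −0.73, SE 0.18, limma adjusted p = 0.235). Bnip3, a receptor that marks mitochondria for removal, stood at 79.5 and 29.2 FPKM against 133.7 and 133.4 FPKM (log2 difference −1.45, SE 0.51, limma adjusted p = 0.286). Bnip3l, its relative, stood at 52.5 and 56.8 FPKM against 73.1 and 72.7 FPKM (log2 difference −0.41, SE 0.11, limma adjusted p = 0.246). The wild-type mean was thus 2.46-fold higher for Bnip3 and 1.33-fold higher for Bnip3l, and the knockout-labelled libraries were far apart for Bnip3 but close for Bnip3l.

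Among the remaining targets, Ddit4 and Ankrd37 stood farthest below wild type. Ddit4, an inhibitor of mTORC1 signalling under low oxygen (ENSMUSG00000020108, chr10:59949669-59951834, minus strand), stood at 21.7 and 13.7 FPKM in the knockout-labelled libraries and at 49.3 and 47.4 FPKM in wild type. Its wild-type mean was 2.73-fold higher and its nearest pair 2.18-fold apart (log2 difference −1.43, SE 0.25, limma adjusted p = 0.211). Ankrd37, an ankyrin-repeat gene known as a HIF target (ENSMUSG00000050914, chr8:45996902-46005707, minus strand), stood at 1.08 and 1.30 FPKM against 3.52 and 4.08 FPKM. Its wild-type mean was 3.20-fold higher and its nearest pair 2.72-fold apart (log2 difference −1.13, SE 0.19, limma adjusted p = 0.211). Ankrd37 rested on few reads, from 13 in knockout-labelled 1 to 55 in wild type 2, and its exons overlap those of Ufsp2 on the other strand, which stood at 59.0 and 65.4 FPKM against 53.1 and 54.2 FPKM. In all, 4 members were at least 2-fold lower in every pair of libraries, against 1.51% of genes, and 1 was at least 2-fold higher, against 1.74%.

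The other targets showed smaller gaps or none. Kdm3a, a histone demethylase, stood at 45.6 and 36.1 FPKM in the knockout-labelled libraries and at 49.8 and 52.3 FPKM in wild type. Mxi1, an antagonist of Myc, stood at 3.94 and 5.15 FPKM against 5.73 and 5.36 FPKM. Both were lower without overlap by small margins (log2 differences −0.32 and −0.25, limma adjusted p = 0.380 and 0.538). Ndrg1, a stress-response gene induced by low oxygen, was higher, at 51.7 and 75.4 FPKM against 43.51 and 44.97 FPKM (log2 difference 0.49, SE 0.22, limma adjusted p = 0.348). Vegfa, the angiogenic growth factor, overlapped, at 117.9 and 73.2 FPKM against 95.8 and 106.4 FPKM (log2 difference −0.12, SE 0.27, limma adjusted p = 0.835). Adm, the vasodilator peptide, stood at 26.1 and 8.09 FPKM against 25.6 and 24.8 FPKM, low in knockout-labelled 2 alone. The carbonic anhydrases were scarce, with Car9 at 0.812 and 0.219 FPKM against 0.348 and 0.395 FPKM, and Car12 at 0.703 and 2.25 FPKM against 0.959 and 1.04 FPKM. Both carbonic anhydrases overlapped, and each had its knockout-labelled libraries on opposite sides of wild type.

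Genes beyond the members were read from 7 further lists, likewise chosen with earlier results of these data known. No gene of these passed the limma test at an adjusted p under 0.05. Of 35 tested further HIF targets, 14 lay under each wild-type library, against 24.8% of all genes, and 5 over each, against 29.4%, with a median log2 difference of −0.27. At an unadjusted limma p under 0.05, 7 were lower, against 8.29% of all genes, and 1 was higher, against 8.84%. Fam162a, a HIF target linked to cell death, stood at 115.1 and 95.7 FPKM in the knockout-labelled libraries and at 210.9 and 225.2 FPKM in wild type (log2 difference −1.05, SE 0.15, limma adjusted p = 0.189). Hilpda, a lipid-droplet protein, stood at 12.4 and 11.7 FPKM against 22.6 and 19.9 FPKM. P4ha2, a collagen prolyl hydroxylase, stood at 106.8 and 90.8 FPKM against 163.0 and 162.6 FPKM. Ak4, a mitochondrial adenylate kinase, stood at 10.1 and 8.75 FPKM against 18.7 and 15.8 FPKM. All 4 were lower in both knockout-labelled libraries, and they were named because their limma p was the smallest in the list. Rora was the 1 higher gene, at 19.46 and 19.13 FPKM against 12.55 and 13.39 FPKM. Among 9 tested partners of HIF, 4 were below and 2 above both wild-type libraries, with a median of −0.04. The beta subunit gene Arnt was higher, at 37.0 and 46.2 FPKM against 24.8 and 26.3 FPKM (log2 difference 0.68, SE 0.16, limma adjusted p = 0.232).

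The pathways that branch from or follow glycolysis had medians nearer to 0 than the glycolytic enzymes. Their counts below and above both wild-type libraries stand against 24.8% and 29.4% of all genes, and several are near those shares. The 18 tested citric acid cycle genes had a median log2 difference of −0.05, with 6 below both and 2 above both. The 13 genes of pyruvate entry into mitochondria had a median of 0.09, with 2 below and 5 above. Pdpr, a regulator of pyruvate dehydrogenase phosphatase, stood at 11.9 and 10.3 FPKM against 6.70 and 8.23 FPKM, higher in both (limma adjusted p = 0.277). Dlat, a subunit of pyruvate dehydrogenase, stood at 102.4 and 82.5 FPKM against 63.7 and 69.6 FPKM, higher in both (limma adjusted p = 0.280). The 7 pentose phosphate genes had a median of −0.45, with 3 below and 1 above both. Pgls, the lactonase of that pathway, stood at 29.4 and 30.4 FPKM against 40.2 and 42.2 FPKM (limma adjusted p = 0.236), lower in both. The 9 tested genes of gluconeogenesis and glycogen had a median of 0.17, with 2 below and 1 above. The 9 tested other glycolysis genes, mostly tissue-specific isozymes, had a median of 0.00, with 3 below and 4 above. Slc16a1, the other main lactate transporter, stood at 12.5 and 17.4 FPKM against 8.93 and 9.09 FPKM (limma adjusted p = 0.259), the opposite side from Slc16a3. No test of a difference between lists was made.

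**Figure D5:**
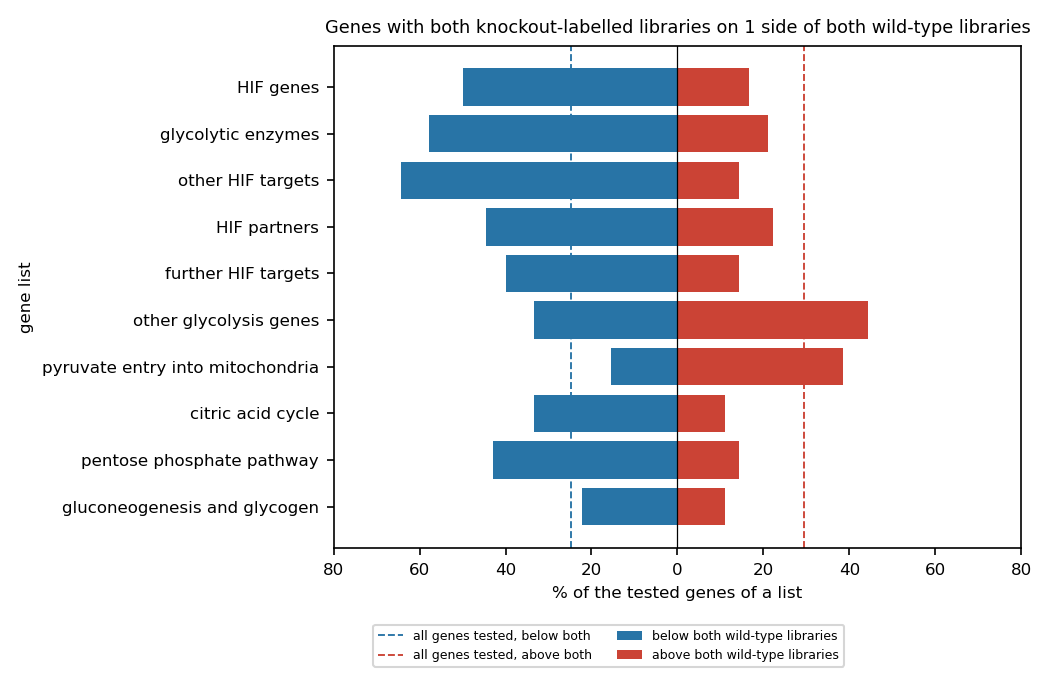
Percent of the tested genes of each list with both knockout-labelled libraries below (left bars) or above (right bars) both wild-type libraries; dashed lines give 24.8% and 29.4%, the shares of all genes tested. The left bars pass the dashed line for every list except pyruvate entry and gluconeogenesis with glycogen, and they are longest for the other HIF targets and the glycolytic enzymes; the lists hold between 6 and 35 tested genes.

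Several glycolytic genes have near-identical copies in the mouse genome that can share reads. By sequence, at 90% identity over at least 300 bases, a copy with a mean of at least 1 FPKM was found for Eno1, Gapdh, Gpi1, Ldha and Ldhb. The 176 copies of Gapdh summed to 152.2 and 96.2 FPKM in the knockout-labelled libraries and to 181.4 and 154.7 FPKM in wild type, or 16.03% to 20.85% of Gapdh itself, so that its level is the least certain of these. The copies of Eno1 summed to at most 7.33% of Eno1 in any library, those of Ldhb to at most 6.76% and those of Ldha to at most 0.840%. The glycolytic median was −0.71 without these 5 genes and −0.71 with each gene summed with its copies, as it was in the main comparison.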

How the data were processed

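RNA of 4 libraries was measured as FPKM per gene in 1 deposited table, made by the authors from reads aligned to mm10; Bowtie2 2.2.3, TopHat2 2.0.12 and HTSeq 0.6.1 are named per the submitters' processing notes. The source of the gene lengths and the use of strand are not given in the sources used here. The FPKM are exact quotients of whole numbers, which gave reads whole to within 0.01 for each of the 25309 genes above 0; they add up to 97.68% to 97.84% of the library totals and are lower bounds where a gene's counts share a factor. Names, coordinates and exon overlaps came from GENCODE M21 (GRCm38), which held 40535 of the 41029 identifiers. The 12344 genes averaging 1 FPKM or more were tested on log2(FPKM + 1) with limma 3.58.1 (R 4.3.3), a mean-variance trend and no covariate; p-values are two-sided, adjusted by Benjamini and Hochberg's method over those genes and read at 0.05. The fit leaves 2 residual degrees of freedom. A trial on simulated data used a spread smaller than that pooled over these libraries, and equal in both groups. It therefore does not show how the fit performs on these libraries. Since FPKM are scaled to a library's total, a gain in abundant genes lowers the rest. Copies were found with blastn 2.17.0 (at least 90% identity over 300 bases). Values are given for the HIF genes, for members without overlap or with an unadjusted p under 0.05, and for some that overlapped; further lists give up to 4 genes by smallest p. The members and lists were chosen with earlier results of these data known. The replicate numbers were not treated as pairs, because the labels do not say whether they pair the libraries. The correlation of their deviations was 0.0061 over genes, which cannot decide this, since the wild-type pair lay close together. Alternatives were the pseudocount, the filter, the scaling, the trend, a replicate block, each library left out, limma-voom on reads and other groupings of the members.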

Additional observations from a re-analysis of the deposited data

How the results depend on the processing

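No member passed the threshold under any alternative other than leaving out a knockout-labelled library (0 to 31 members called, and 0 to 7415 of all genes, over the fits that left out 1 library each). The 2 genes called in all became 1 with a pseudocount of 0.1, 1 with 0.01, 0 with limma-voom and 0 with the replicate block. Under the block 15 members had an unadjusted limma p under 0.05, as many as without it. Over all 12344 genes tested, 1328 had such a p under the block, against 2114 without it. The direction held in every alternative run for 31 of 39 members, 23 lower and 8 higher; a mean of at least 5 FPKM kept 35 members and left out Aldoc, Slc2a3, Ankrd37 and Car12. It turned without knockout-labelled 2 for 5 members, whose log2 differences over the fits with 1 library left out ran from −0.79 to 0.14 for Hif1a, −0.86 to 0.033 for Eno1, −0.46 to 0.22 for Vegfa, −0.23 to 0.70 for Car12 and −1.53 to 0.046 for Adm. It turned without knockout-labelled 1 for Pfkfb3 (−0.16 to 0.57) and Ldhb (−0.19 to 0.83), and with quantile normalization for Pkm (0.037). The glycolytic median ran from −0.86 to −0.35. The median of the other HIF targets was −0.41 without a filter, −0.73 at a mean of at least 5 FPKM, −0.37 with the transporters and Pdk1 counted as glycolytic and −0.37 with Pfkfb3 and Pfkfb4 counted among the other targets, and ran from −0.57 to −0.36 with 1 library left out. Over those fits, members below the wild-type libraries kept ran from 23 to 30, and members above them from 7 to 13. The 30 came without knockout-labelled 1 and the 13 without knockout-labelled 2, where 1 library alone had to lie on that side. Of all genes, 43.7% and 47.6% did so. The causes were not tested. The comparisons with near-identical copies were added after seeing the data and left the glycolytic median at −0.71. Few reads limit Ankrd37, Aldoc, Car9, Car12, Epas1 and, in wild type, Slc2a3.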
